A study of Mus musculus with 4 samples.

Results

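The genes described are 10 chemokine ligands, Ccl19, Ccl21a, Ccl27a, Cxcl13, Cxcl12, Cxcl10, Cxcl9, Ccl5, Ccl2 and Cx3cl1, in whole mouse brain. They were read by 12 of the 41174 distinct probes of an Agilent array, each taken through the RefSeq accession that the array gives it, and they make up 10 of 16543 named genes. The list was chosen with the measured values in view, Ccl19 for its difference between the strains, so the strain ratios of the 10 genes are a description of these RNAs and no test.

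Chemokines are small secreted proteins that draw cells bearing the matching receptor along a gradient. In lymph nodes and spleen, CCL19 and CCL21 guide T cells and dendritic cells through the receptor CCR7, and CXCL13 guides B cells through CXCR5. CXCL9 and CXCL10 are induced by interferons and act on CXCR3 of activated T cells, CCL2 draws monocytes through CCR2, and CCL5 draws T cells and monocytes. In healthy brain, neurons make CX3CL1, whose receptor CX3CR1 is carried by microglia, and CXCL12 is made by vessels, meninges and some neurons.

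Brain RNA was compared on 4 two-colour arrays, in which one RNA carries the dye Cy5 and the other Cy3. The diet pair set SAMP8 mice fed powdered diet with whale meat extract (WME) against SAMP8 mice on the low-safflower oil control diet (LSO). The strain pair set SAMP8 mice on LSO against SAMR1 mice on LSO. Each pair filled 2 arrays, and the second array had the dyes exchanged. SAMP8 is a senescence-prone mouse strain and SAMR1 the senescence-resistant strain usually set against it. The labels give both the background AKR/J with suspected outbreeding to an unknown line. All mice came at 6 weeks of age, started their diet at 24 weeks, were fed it for 26 weeks, went through behaviour tests at 49 weeks and were sampled at 50 weeks. The sources used here give neither the number of mice behind an RNA nor whether RNAs were pooled. SAMR1 mice with WME were not part of the comparison, so a diet difference in that strain was not measured.

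There was 1 RNA per group, so no difference has a replicate check and none is given a p-value. Each log2 ratio has the SD of its 2 dye orientations beside it, a technical error that holds the dye bias of the probe. Genes were taken as measured if, on both arrays of a pair, their brightest probe was well above background for 1 RNA or more. A call of higher or lower needed a difference of 1.5-fold or more on each array, both the same way. Levels are background-corrected and normalized linear intensities, which contain an offset of 50 and so pull the ratios of dim probes towards 0. In each channel, 81.4% to 85.6% of probe spots stood well above background, and the scanner program flagged 0 as saturated. The 6 neuron markers were all measured, with summed levels from 322733 to 372199 over the 4 arrays and all RNAs.

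Of the 10 chemokine genes, 5 were higher in SAMP8 than in SAMR1 on LSO and 0 were lower. The array measured 26937 genes and unnamed transcripts in this pair, with 261 higher (0.969%) and 133 lower (0.494%), and because the 10 genes were selected on this contrast nothing is read from the difference in shares. Their median log2 ratio was 0.61, against −0.01 over everything measured. Between the diets, 0 of 9 measured chemokine genes were called in either direction, against 15 higher (0.0563%) and 8 lower (0.0300%) of 26661. That balance rested on both arrays, since the one with WME in Cy3 alone gave 15 higher and 64 lower, and the one with WME in Cy5 alone 88 higher and 23 lower. Their median diet log2 ratio was −0.02, against 0.00 over everything measured. In whole tissue, more cells of a type and more RNA per cell cannot be told apart.

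**Figure D1:**
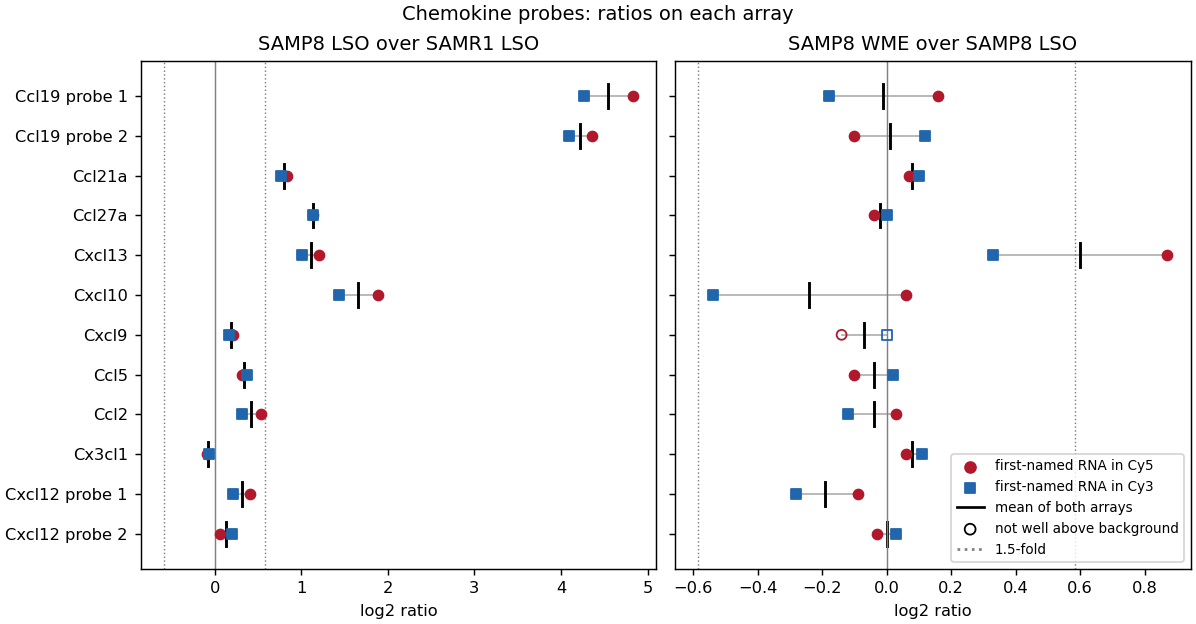
Log2 ratios of the 12 chemokine probes on each array, SAMP8 LSO over SAMR1 LSO on the left and SAMP8 WME over SAMP8 LSO on the right (the scales of the horizontal axes differ). Circles and squares are the 2 dye orientations, black bars their mean, open symbols a probe not well above background in either RNA, and dotted lines 1.5-fold. Both Ccl19 probes lie above 4 in the strain pair and near 0 in the diet pair.

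Ccl19 had the largest strain difference of the 10 genes. Its brighter probe read 41288 and 39143 in SAMP8 LSO RNA, against 1452 and 2044 in SAMR1 LSO RNA, the first array of each pair of values carrying SAMP8 in Cy5 and the other carrying it in Cy3. The other probe read 35308 and 36860 in SAMP8 LSO, against 1724 and 2161 in SAMR1 LSO. Both probes were well above background in every RNA, so the transcript was also detected in SAMR1, and the SAMP8 values lay far above the SAMR1 values on both arrays. The log2 ratios were 4.54 ± 0.40 (23.3-fold) and 4.22 ± 0.19 (18.7-fold) (SD, 2 arrays of 1 RNA pair). Ccl19 has near-identical copies in the mouse genome, and which of them the probes read was not tested. Among all measured genes and transcripts it ranked 2 from the top by strain ratio.

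Between the diets Ccl19 did not differ in one direction. Its brighter probe read 40768 and 34285 in SAMP8 WME RNA, against 36413 and 38733 in SAMP8 LSO RNA, with WME in Cy5 on the first array and in Cy3 on the other. The log2 ratio was 0.16 on one array and −0.18 on the other, a mean of −0.01 ± 0.24, and the other probe gave 0.01 ± 0.16. The sign changed with the dye on both probes, and in opposite ways. The diet pair shares the SAMP8 LSO group with the strain pair, so the SAMP8 LSO level was read on all 4 arrays, from 36413 to 41288. Whether the same SAMP8 LSO extract served both pairs is not stated. If it did, adding the ratios of both pairs sets SAMP8 WME 23.2-fold above SAMR1 LSO for the brighter Ccl19 probe.

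The stretch before the transcription start of Ccl19 is shown beside those of Cxcl10, Cxcl9 and Cxcl13, to compare the chemokines known as interferon targets with the lymphoid ones. Sequences are from RefSeq on GRCm38.p6, in which 8 of the 10 genes had a promoter entry, and give the 250 bases before the start, 5′ to 3′ on the gene's strand. Capitals mark matches to 2 short motifs, searched on both strands.
Ccl19, chr4:42756366-42756615, minus strand: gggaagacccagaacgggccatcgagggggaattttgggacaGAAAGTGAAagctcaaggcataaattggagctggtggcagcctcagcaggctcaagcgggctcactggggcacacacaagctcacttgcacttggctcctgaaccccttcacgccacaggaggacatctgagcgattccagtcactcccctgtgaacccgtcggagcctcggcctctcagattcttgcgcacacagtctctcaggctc
Cxcl10, chr5:92348890-92349139, minus strand: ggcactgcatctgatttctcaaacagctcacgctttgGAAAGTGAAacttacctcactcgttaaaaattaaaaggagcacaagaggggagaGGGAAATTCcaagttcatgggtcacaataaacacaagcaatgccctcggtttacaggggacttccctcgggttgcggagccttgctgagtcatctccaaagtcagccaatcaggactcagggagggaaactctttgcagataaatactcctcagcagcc
Cxcl9, chr5:92328080-92328329, minus strand: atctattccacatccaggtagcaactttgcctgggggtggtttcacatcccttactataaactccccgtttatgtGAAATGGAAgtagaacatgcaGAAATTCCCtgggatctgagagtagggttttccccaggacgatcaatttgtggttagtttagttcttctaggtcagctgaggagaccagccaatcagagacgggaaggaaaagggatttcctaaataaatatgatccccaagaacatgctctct
Cxcl13, chr5:95956689-95956938, plus strand: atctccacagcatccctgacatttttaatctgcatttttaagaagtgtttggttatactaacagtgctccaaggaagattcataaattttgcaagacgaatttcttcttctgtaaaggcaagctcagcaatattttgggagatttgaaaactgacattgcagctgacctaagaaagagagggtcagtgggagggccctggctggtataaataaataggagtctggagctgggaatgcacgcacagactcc

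The window of Ccl19 held GAAANNGAA, a motif of the interferon response type, from −208 to −200, counted back from the base before the start as −1. Cxcl10 held it from −213 to −205 and Cxcl9 from −175 to −167. GGGANNTTC, a motif of the NF-kB type, lay from −159 to −151 in Cxcl10 and, on the opposite strand, from −154 to −146 in Cxcl9. The windows of Cxcl13, Ccl21a, Ccl27a, Cxcl12 and Cx3cl1 held neither, and none of the 8 genes' windows held TTCNNNGAA, the STAT dimer type, between 250 bases before and 50 after a start. Over 32851 RefSeq promoter windows of that length, 2812 (8.56%) held the first motif, 1295 (3.94%) the NF-kB type and 2726 (8.30%) the STAT dimer type. The matches did not overlap each other. A match describes letters and shows no binding.

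**Figure D2:**
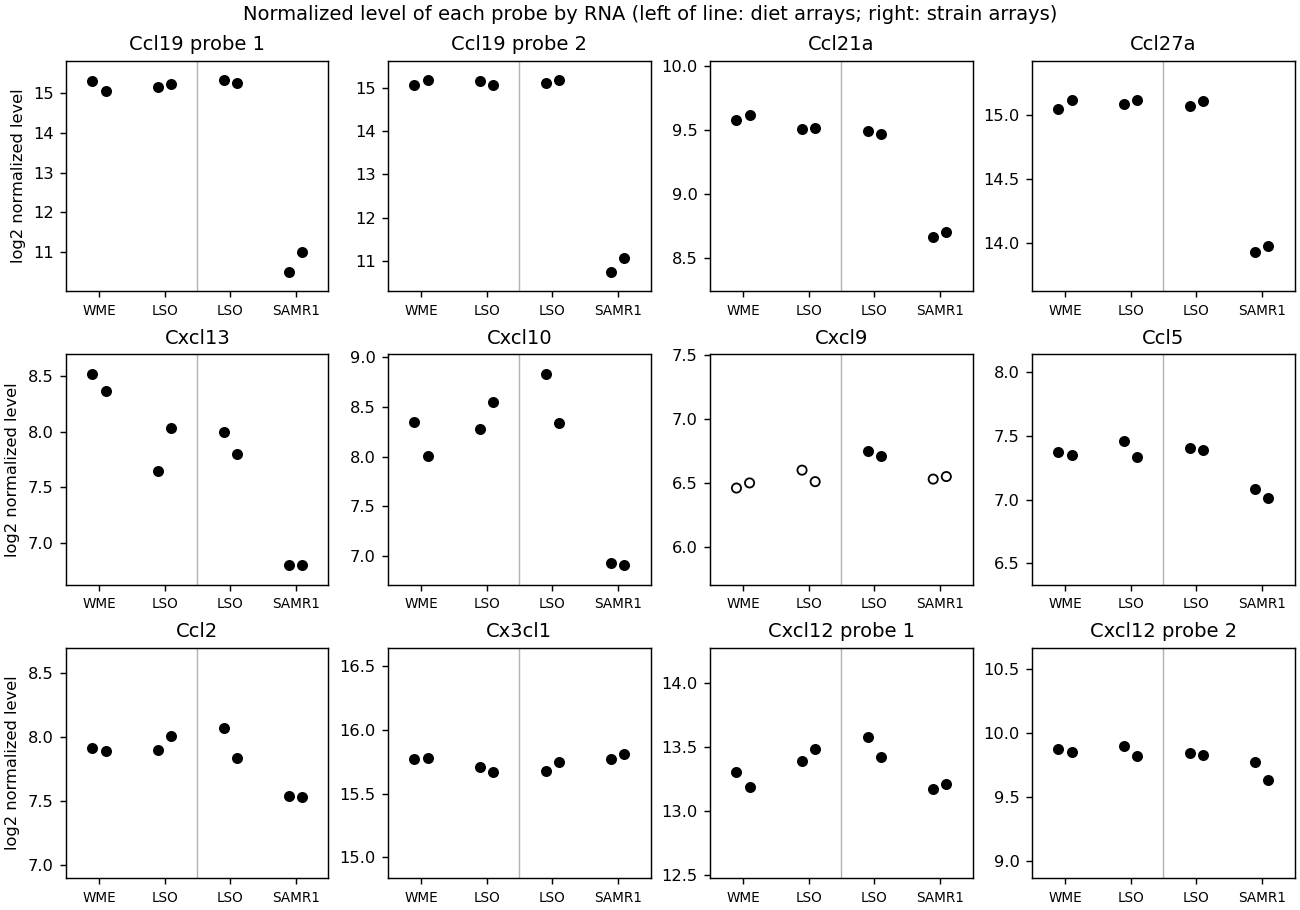
Log2 normalized level of each chemokine probe in each RNA, with 1 point per array. From left to right, SAMP8 WME and SAMP8 LSO on the diet arrays, then SAMP8 LSO and SAMR1 LSO on the strain arrays. Open circles mark readings not well above background. Vertical axes differ between probes, and the Ccl19, Ccl21a, Ccl27a, Cxcl13 and Cxcl10 panels show SAMR1 below all SAMP8 readings.

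Ccl21a, the other CCR7 ligand, was also higher in SAMP8, by much less. It read 720 and 709 in SAMP8 LSO, against 404 and 416 in SAMR1 LSO, a log2 ratio of 0.80 ± 0.05 (1.74-fold). Between the diets it read 765 and 784 in WME RNA, against 728 and 734 in LSO RNA (0.08 ± 0.02). That diet ratio lay between the 5th and 95th percentiles of all diet ratios, −0.11 and 0.11. Only the strain difference reached 1.5-fold.

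Ccl27a encodes a ligand of CCR10 that is best known from skin, where keratinocytes make it. Its probe read 34314 and 35371 in SAMP8 LSO, against 15652 and 16180 in SAMR1 LSO, a log2 ratio of 1.13 on both arrays (2.19-fold). Its WME levels of 33927 and 35637 overlapped the LSO levels of 34804 and 35595 on the diet arrays (−0.02 ± 0.03).

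Ccl27a, Ccl19 and Ccl21a lie in this order on mouse chromosome 4, within a stretch of 48 loci that holds near-identical copies. Of its 18 protein-coding loci they were the 3 with a probe. The RefSeq gene table of GRCm38.p6 names 13 loci of these 3 families, of which 10 have no probe assigned by accession. They are Gm2023 and the pseudogenes Ccl19-ps1, Ccl19-ps2 and Ccl19-ps3 beside Ccl19, Ccl21b, Ccl21c, Ccl21d, Gm13304 and Gm10591 beside Ccl21a, and Ccl27b beside Ccl27a. Probe sequences were not used here, so the values of these 3 genes are uncertain in that respect. The likeness of the copies can be seen before the start of Ccl21a and Ccl21d, printed in the same way, with the base that differs over 249 aligned bases in capitals.
Ccl21a, chr4:42773992-42774241, minus strand: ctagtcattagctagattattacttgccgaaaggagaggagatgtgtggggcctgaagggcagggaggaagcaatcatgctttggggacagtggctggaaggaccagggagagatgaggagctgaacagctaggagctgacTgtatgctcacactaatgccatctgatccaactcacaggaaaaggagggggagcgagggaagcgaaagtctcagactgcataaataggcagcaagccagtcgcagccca
Ccl21d, chr4:41903363-41903612, plus strand: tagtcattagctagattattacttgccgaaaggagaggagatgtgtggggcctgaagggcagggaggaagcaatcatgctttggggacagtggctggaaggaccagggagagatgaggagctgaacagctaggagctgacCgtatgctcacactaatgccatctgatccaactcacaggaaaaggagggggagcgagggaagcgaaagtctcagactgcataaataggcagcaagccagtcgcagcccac

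Over the whole windows, including 50 bases after the start, Ccl21a and Ccl21d were identical at 297 of 299 aligned bases. Ccl21a matched Gm13304 and Gm10591 at 296 of 299 each. The window of Ccl21b shared 37.0% of 211 aligned bases with that of Ccl21a. Windows sit at annotated starts and were aligned without gaps, so this value does not measure the likeness of the transcripts. One window of Ccl27a and one of Ccl27b were identical at 286 of 288 bases.

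The genes flanking this chromosome 4 stretch were also read, in the order of the gene table, a comparison added after the values had been seen. Among 11 measured flanking genes, SAMP8 was higher for 2 and lower for 0, and the 2 lay on the Ccl27a side. Over everything measured, 0.969% were higher and 0.494% lower. As the flanks were added with the values known, nothing is read from the difference in shares. Dctn3, a dynactin subunit, had a strain log2 ratio of 1.62 ± 0.11. Rpp25l had 0.93 ± 0.16, with 0.71 on its other probe. Galt, an enzyme of galactose metabolism, stood at −0.03 ± 0.13. Il11ra1, an interleukin-11 receptor, stood at 0.41 ± 0.03 on its brighter probe and at −0.03 on the other. On the Ccl21a side the 6 genes ranged from −0.26 for Fancg to 0.24 for Vcp. The brighter probe of Phf24, on that side, read −0.09 ± 0.19 while its dimmer probe read −1.25. Between the diets each of these genes stood between −0.12 and 0.08.

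**Figure D3:**
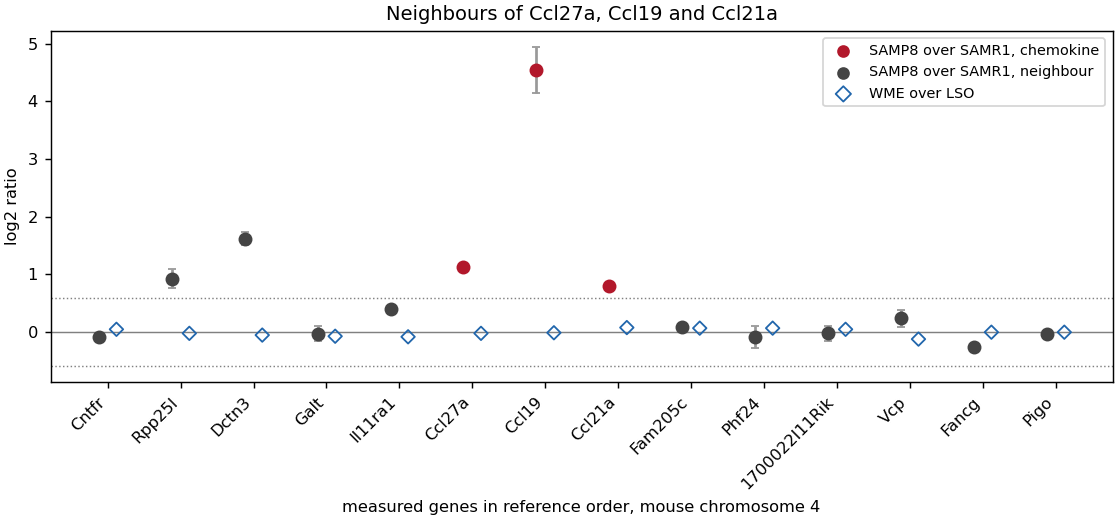
Log2 ratios of 11 measured genes around Ccl27a, Ccl19 and Ccl21a in the order of the reference gene table. Filled circles are SAMP8 LSO over SAMR1 LSO with the SD of 2 arrays, diamonds are SAMP8 WME over SAMP8 LSO, and dotted lines mark 1.5-fold. Rpp25l and Dctn3 stand above the line, as do the chemokine genes, while their diet ratios lie near 0.

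The flanks of the other chemokine genes held from 0 to 1 called gene each. The shares called over everything measured were 0.969% higher and 0.494% lower, and nothing is read from these small counts. Around Cxcl9 and Cxcl10 on chromosome 5, 0 of 13 measured neighbours were called, and Art3, which lies between them, stood at −0.08 ± 0.00. Around Cxcl13, on the same chromosome, 0 of 12 were called. Shroom3, Sowahb and Ccni lie between these stretches and were counted in both. Around Ccl5, 0 of 12 were called. Around Ccl2, 1 of 12 was called. Next to it lie other chemokine genes, of which Ccl8 was higher (0.70 ± 0.04). Ccl12 (0.63 ± 0.12) and Ccl7 (0.45 ± 0.16) were above 0 on both arrays and not called. Of 12 measured neighbours of Cx3cl1, 1 was called, Ccl17, lower in SAMP8 at −0.79 ± 0.03. Around Cxcl12, 1 of 12 was called, Depp1, which was higher at 0.84 ± 0.11, and Alox5, the enzyme that starts leukotriene synthesis, stood at −0.56 ± 0.10.

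Cxcl13, the B cell chemokine of lymphoid follicles, was higher in SAMP8. It read 256 and 223 in SAMP8 LSO, against 111 and 111 in SAMR1 LSO, a log2 ratio of 1.11 ± 0.14 (2.15-fold). It was also the chemokine gene with the largest diet ratio. The WME RNA read 366 and 328, against 200 and 261 in LSO RNA. The difference passed 1.5-fold only on the array with WME in Cy5 (log2 ratios 0.87 and 0.33, mean 0.60 ± 0.39, 1.51-fold). Cxcl13 ranked 29 from the top of 26661 by diet ratio. With the scanner program's processed signals, which carry no added offset, the mean diet log2 ratio was 0.95 and Cxcl13 was called. On those signals its strain log2 ratio was 2.24, a 4.72-fold difference. If both pairs held the same SAMP8 LSO extract, the summed loess-normalized ratios set SAMP8 WME 3.26-fold above SAMR1 LSO.

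Cxcl12, which holds CXCR4-bearing cells in place and is expressed widely in brain, was called in neither pair. Its brighter probe read 12262 and 10968 in SAMP8 LSO, against 9225 and 9489 in SAMR1 LSO (0.31 ± 0.14). It read 10086 and 9367 in WME RNA, against 10750 and 11406 in LSO RNA (−0.19 ± 0.14). Neither difference reached 1.5-fold. Both lay outside the 5th to 95th percentiles of all ratios, −0.19 to 0.22 for the strains and −0.11 to 0.11 for the diets. The other probe, which carries a different accession, gave 0.13 ± 0.10 for the strains and 0.00 ± 0.04 for the diets.

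Cxcl10 had the next largest strain ratio after Ccl19. It read 454 and 323 in SAMP8 LSO, against 122 and 120 in SAMR1 LSO, a log2 ratio of 1.66 ± 0.33 (3.17-fold). The processed signals gave 5.96-fold. Between the diets the arrays differed, with 326 and 258 in WME RNA, against 312 and 376 in LSO RNA. The log2 ratios of 0.06 and −0.54 average to −0.24 ± 0.43, so the arrays did not give the direction together. The SAMP8 LSO readings themselves spanned 312 to 454 over the 4 arrays.

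Cxcl9, which shares its receptor with Cxcl10, was near the limit of detection. It read 107 and 105 in SAMP8 LSO, well above background on both strain arrays, against 92.7 and 93.9 in SAMR1 LSO, which were not. These readings set SAMP8 LSO 1.14-fold above SAMR1 LSO. On the diet arrays Cxcl9 was not well above background in either RNA, with 88.1 and 90.8 in WME RNA and 96.9 and 90.9 in LSO RNA. The same SAMP8 LSO group thus passed the mark on the strain arrays and missed it on the diet arrays. Its diet array readings lay on both sides of the SAMR1 readings, so no least difference is read from these values. Processed signals put its strain ratio at 2.56-fold, from 11.6 and 17.7 in SAMP8 LSO against 3.58 and 8.79 in SAMR1 LSO. The processed SAMP8 LSO signals on the diet arrays, 6.89 and 4.24, lay between those SAMR1 signals, so this ratio is uncertain.

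Of the inflammatory chemokines, Ccl5 and Ccl2 were above SAMR1 on both arrays without reaching 1.5-fold on either. Ccl5 read 168 and 167 in SAMP8 LSO, against 136 and 129 in SAMR1 LSO (0.34 ± 0.04), and was called on processed signals at 1.80-fold. Ccl2 read 268 and 229 in SAMP8 LSO, against 186 and 185 in SAMR1 LSO (0.42 ± 0.16). Its probe was printed in 10 spots. Their strain log2 ratios ran from 0.44 to 0.76 on the array with SAMP8 in Cy5 and from 0.10 to 0.47 on the other, so all lay above 0. Neither gene differed in one direction between the diets (Ccl5 −0.04 ± 0.08, Ccl2 −0.04 ± 0.10). The 10 Ccl2 spots ran from −0.06 to 0.16 with WME in Cy5 and from −0.22 to −0.04 with WME in Cy3.

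Cx3cl1 was the only one of the 10 genes below SAMR1 on both arrays, by a small amount. It read 52567 and 55086 in SAMP8 LSO, against 55939 and 57466 in SAMR1 LSO (−0.08 ± 0.02). In the diet pair it read 55891 and 56240 in WME RNA, against 53610 and 52142 in LSO RNA (0.08 ± 0.03). Both differences were within the range of most genes, whose strain ratios ran from −0.19 to 0.22 and diet ratios from −0.11 to 0.11 between the 5th and 95th percentiles.

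Beyond the 10 genes, the chemokine family was read from lists of ligands and receptors. Of 31 other ligands, 26 had a probe and 17 were measured in the strain pair. Ccl8 was higher and Ccl17, a ligand of CCR4, was lower, and the median log2 ratio of the 17 was 0.22. Over everything measured, 0.969% were called higher and 0.494% lower. Between the diets 0 of 18 were called, with a median of 0.01. All 23 receptors had a probe, 16 were measured and 0 were called in either pair, with a median strain log2 ratio of −0.01. The receptors of the lymphoid chemokines, Ccr7 and Cxcr5, were not well above background, nor was Ccr2. Cxcr3, the receptor of Cxcl9 and Cxcl10, stood at 0.11 ± 0.03 and Cx3cr1 at 0.12 ± 0.01. The brighter probe of Cxcr4 gave 0.52 and −0.53 on the arrays of the strain pair, a sign that followed the dye. The receptors farthest from 0 were Ccrl2 (0.31 ± 0.04) and Ackr2 (−0.17 ± 0.28).

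Other genes were read from a list on lymphoid tissue and a list on interferon and NF-kB signalling. Among 17 genes of lymphoid tissue formation (lymphotoxins, their receptor, the alternative NF-kB pathway and adhesion molecules), 15 were measured and 0 were called, with a median strain log2 ratio of 0.05. The members farthest from 0 were Tnfsf13b, the B cell survival factor BAFF (−0.27 ± 0.01), and Nfkb2 (0.22 ± 0.13). Among 18 genes of interferon receptors, JAK-STAT signalling, IRF and NF-kB factors, 16 were measured, 3 were higher and 0 lower (0.969% and 0.494% of everything measured). The median log2 ratio was 0.09, and 10 of the 16 were above 0 on both arrays and 0 below, against 23.9% above and 26.7% below over everything measured. Tyk2, a kinase of the type I interferon receptor, had a log2 ratio of 2.37 ± 0.01. Irf7, a regulator of type I interferon genes, had 0.84 ± 0.02. Irf9, the DNA-binding part of the interferon-stimulated complex ISGF3, had 0.78 ± 0.19, and 0.15 on its other probe. Ifng was not well above background. Between the diets 0 of the measured genes of both lists were called.

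Among 222 named genes called in a pair, the closest to Ccl19 over the ratios of the 4 arrays was H2-Bl, a major histocompatibility complex class I gene, at a distance of 0.49. Its log2 ratios were 4.39 for the strains and −0.10 for the diets. It was followed at distances of 2.09 to 2.99 by Trim12a, Adat2, Tmem40 and Ifi27l2a, whose strain log2 ratios lay between 2.45 and 3.10. The distance is Euclidean over 4 log2 ratios, which the size of the strain ratio dominates.

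Marker genes of cell types that could carry or attract these chemokines were read in the same RNAs. Over everything measured in the strain pair, 0.969% were called higher and 0.494% lower. Here 4 of 6 meningeal fibroblast markers were higher in SAMP8 (Col1a1, Col1a2, Col3a1 and Ogn, list median 0.67). The 6 summed to 21865 and 22287 in SAMP8 LSO, against 15929 and 15143 in SAMR1 LSO. On their other probes Col1a1 stood at 0.48 and 0.17 and Col3a1 at −0.01. Of 5 measured mural cell markers 3 were higher (Pdgfrb, Rgs5 and Kcnj8). The 5 summed to 14882 and 15371 in SAMP8 LSO, against 11574 and 12035 in SAMR1 LSO. The other mural markers were Abcc9, below 0 on both arrays (−0.14 ± 0.01, with −0.43 and −0.40 on its other probes), and Acta2 (0.15 ± 0.00). Of 5 measured monocyte and neutrophil markers 3 were higher (S100a8, S100a9 and Lyz2). The 5 summed to 13404 and 12365 in SAMP8 LSO, against 6933 and 6950 in SAMR1 LSO. Lyz2 stood at 0.51 on its other probe. Ngp (0.43 ± 0.14) and Camp (0.42 ± 0.01) were above 0 on both arrays and not called. The sums of T cell markers were 1588 and 1941 in SAMP8 LSO, against 1575 and 1957 in SAMR1 LSO, and 0 of 6 were called. Cd8a, Cd8b1 and Trbc1 of that list had no probe. Of the B and plasma cell markers 0 of 5 measured were called, and Ms4a1, a defining B cell gene, was not well above background. Itgax was the 1 dendritic cell marker of 5 measured that was higher (1.02 ± 0.05), and Clec9a and Cd209a were not well above background. Of 6 endothelial markers 0 were called, and all 6 were above 0 on both arrays (median 0.30). Over everything measured, 23.9% lay above 0 and 26.7% below 0 on both arrays. The endothelial markers summed to 19347 and 21848 in SAMP8 LSO, against 16538 and 15724 in SAMR1 LSO. Of 5 choroid plexus markers 0 were called and all 5 were below 0 on both arrays (median −0.17), with sums of 14137 and 13586 in SAMP8 LSO, against 16229 and 15848 in SAMR1 LSO. For 7 microglia and 4 lymphatic endothelial markers, with 0 called, the medians were −0.06 and −0.01. Of 6 astrocyte markers 0 were called, with 3 above 0 and 2 below 0 on both arrays (median 0.07). Among them Gfap stood at 0.55 ± 0.21 and Aqp4 at 0.41 ± 0.10. Of 4 oligodendrocyte markers 0 were called (median −0.04). The part of these differences in the chemokine values was not tested.

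Between the diets the meningeal fibroblast markers had a median log2 ratio of −0.19 with 0 of 6 called. Of 5 monocyte and neutrophil markers 2, S100a8 and S100a9, were lower with WME (−0.80 ± 0.12 and −1.09 ± 0.06). Over everything measured in the diet pair, 0.0563% were called higher and 0.0300% lower. The 5 markers summed to 11961 and 10821 in WME RNA, against 12226 and 12687 in LSO RNA. The T cell and B cell lists had 0 called.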

How the data were processed

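Whole-brain RNA of SAMP8 and SAMR1 mice was read on 4 arrays of 1 slide, so no batch could be compared. Agilent Feature Extraction 11.0.1.1, named in the headers and in the submitters' processing notes, made the deposited intensities. Per the file headers, median intensities are raw, and the processed ones had background subtracted and dyes normalized and gave a log10 ratio. The deposited table holds log2 ratios of red over green processed signal, not turned for dye (column medians −0.018, 0.012, 0.0036 and 0.017).

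Median signals were corrected with normexp (offset 50) and normalized by loess within arrays, with control spots at weight 0, in limma 3.58.1 (R 4.3.3). Outlier spots were left out, spots of a probe averaged and ratios turned for dye. Levels were then scaled between arrays by average intensity (Aquantile). Median signals replaced the planned mean signals, which the files did not hold. Of 41174 probes 23374 were named by accession and 10 by symbol through the gene table of GRCm38.p6, which served only to name and order genes because the headers name mm8, and 17790 had no match. A gene took its brightest probe. Where 1 RNA was not well above background, a fold is the ratio of the readings and no measured size.

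The chemokine genes and lists were chosen with earlier results of these data known. All chemokine probes were named, as were up to 8 called genes of each other list (without calls, the 2 farthest from 0) and the 5 genes nearest to Ccl19. Flanking genes, copies and receptors or markers beyond this rule were named with their values known. Some genes are not reported here. The steps were tested on simulated arrays. Alternatives were processed signals, median centring, an offset of 10, stricter and no filters on dim probes, the median over probes, a 2-fold threshold, outlier spots kept and each array left out.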

Additional observations from a re-analysis of the deposited data

How the results depend on the processing

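The 5 chemokine genes called in the strain pair were called under every alternative run except a 2-fold threshold, which left 4 without Ccl21a. Processed signals called 7, adding Ccl5 and also Cxcl9, which was not well above background in SAMR1. Leaving out Ccl19, Ccl21a and Ccl27a, chosen after seeing the data because of their copies, left 2. Processed signals called 12 ligands in place of 7, and 756 genes in place of 394, and a 2-fold threshold called 4 ligands and 139 genes. In the diet pair processed signals called 1 chemokine gene (Cxcl13), 2 ligands (Cxcl13 higher, Ppbp lower) and 103 genes in place of 0, 0 and 23, and a 2-fold threshold called 9 genes. With 1 array left out, the diet calls ran from 0 to 1 for the chemokine genes and ligands alike (Cxcl13 without the array that had WME in Cy3) and from 79 (15 higher, 64 lower) to 111 (88 higher, 23 lower) for all genes. The cause was not tested.

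No called chemokine ratio changed sign. Uncalled diet ratios crossed 0 for Ccl19 (−0.18 to 0.22), Ccl27a (−0.04 to 0.21), Cxcl10 (−0.54 to 0.06), Ccl5 (−0.12 to 0.02), Ccl2 (−0.13 to 0.03) and Cxcl12 (−0.28 to 0.01). Leaving out an array aside, where a move beyond the SD of 2 arrays cannot occur, 14 of 50 strain values and 9 of 49 diet values moved by more than that SD. With single arrays included, the strain log2 ratio of Cxcl13 ran from 1.01 to 2.24 and that of Cxcl10 from 1.43 to 2.57. Cxcl9 ran from 0.16 to 1.36, Ccl5 from 0.31 to 0.85 and Ccl19 from 4.26 to 4.83. A single array gave each lower end and also the upper end for Ccl19, which otherwise ran from 4.34 to 4.58. Median centring moved the median diet ratio of all genes to 0.07. Dim probes are limited by signal over background. No paired analysis was possible because the arrays of a pair hold the same RNAs and no group has replicates.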
